A study of Mus musculus with 2 samples.

Results

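The immunoglobulin light chain loci of lymphoma T6 held 107 accessible chromatin sites out of 53593 mapped by DNaseI sequencing in this tumour. The sites were chosen by position alone: any site that overlapped, by at least 1 base, chromosome 6 from 67500000 to 70750000 (the kappa locus, Igk, with its constant segment Igkc) or chromosome 16 from 18950000 to 19350000 (the lambda locus, Igl), in mm9 coordinates. The kappa window held 91 of them. It was divided at 70550000 into a V part of 3050 kb with 74 sites and a J-C-enhancer part of 200 kb with 17 sites. The lambda window of 400 kb held 16 sites.

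T6 is an untreated lymphoma of the Eμ-myc mouse, C57/Bl6 strain, of genotype Arf-/- Trp53+/+, labelled as B cells from lymph nodes. The Eμ-myc transgene places the Myc oncogene under the heavy chain enhancer, which is active in B lineage cells. The cells were pressed out of the nodes and not sorted, so other cells of the node could be present. DNaseI cuts DNA where nucleosomes are absent or displaced, and each site is a stretch rich in cuts. The series has 2 libraries from this tumour, and the list of sites of the DNaseI library was analysed; its input library was not analysed here. There was 1 library and 1 tumour, with no replicate and no other condition, so no p-value is given. Intervals are exact 95% Poisson intervals for densities, exact (Clopper-Pearson) binomial intervals for shares and order-statistic intervals for medians. These account for counting error alone, since adjacent sites depend on each other. The list gives positions without any read count, so the depth is unknown and no site can be graded by its signal.

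A B cell makes its antibody light chain from either Igk or Igl. The recombinase that Rag1 and Rag2 encode joins one V segment, which encodes most of the antigen-binding part, to one of the short J segments, and splicing then adds the constant (C) segment. At Igk, an enhancer lies in the intron between the J segments and Igkc, and further enhancers lie downstream of Igkc. At Igl, J and C segments form repeated units with few V segments, and most mouse light chains are kappa. In the gene table of RefSeq, which is of the build GRCm38.p6, Igk had 162 V segments, of which 60 were pseudogenes, 5 J segments and 1 C segment, and no protein-coding gene between them. Igl had 3 V segments there, with 3 J segments, 2 J pseudogenes, 3 C segments and 1 C pseudogene. That table served only for counts, names and order, because its coordinates belong to another build; no site was therefore assigned to a single segment, enhancer or promoter. The B cell label was not checked against marker genes for the same reason.

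The V part of Igk was dotted with narrow, widely separated sites. Its 74 sites came to 24.3 per Mb (95% interval 19.05 to 30.5), against 22.0 per Mb over the 19 autosomes. The first site began at 67789824 and the last ended at 70444027, so that sites were spread over 2654 kb. Neighbouring sites were separated by a median of 27.4 kb (13.5 to 33.6, 73 gaps), with quartiles of 10.7 and 46.3 kb, against 7.05 kb over the whole list. The smallest gap was 0.053 kb and the longest 213.1 kb. Of the V part sites, 52.7% had another site within 12.5 kb (40.8 to 64.4%), against 82.0% over the whole list (81.7 to 82.3%). The V part held 1.10 times the autosomal number of sites per Mb, but 0.626 times the autosomal covered bases, and 0.299 times the autosomal number of sites wider than the median of the list.

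**Figure D1:**
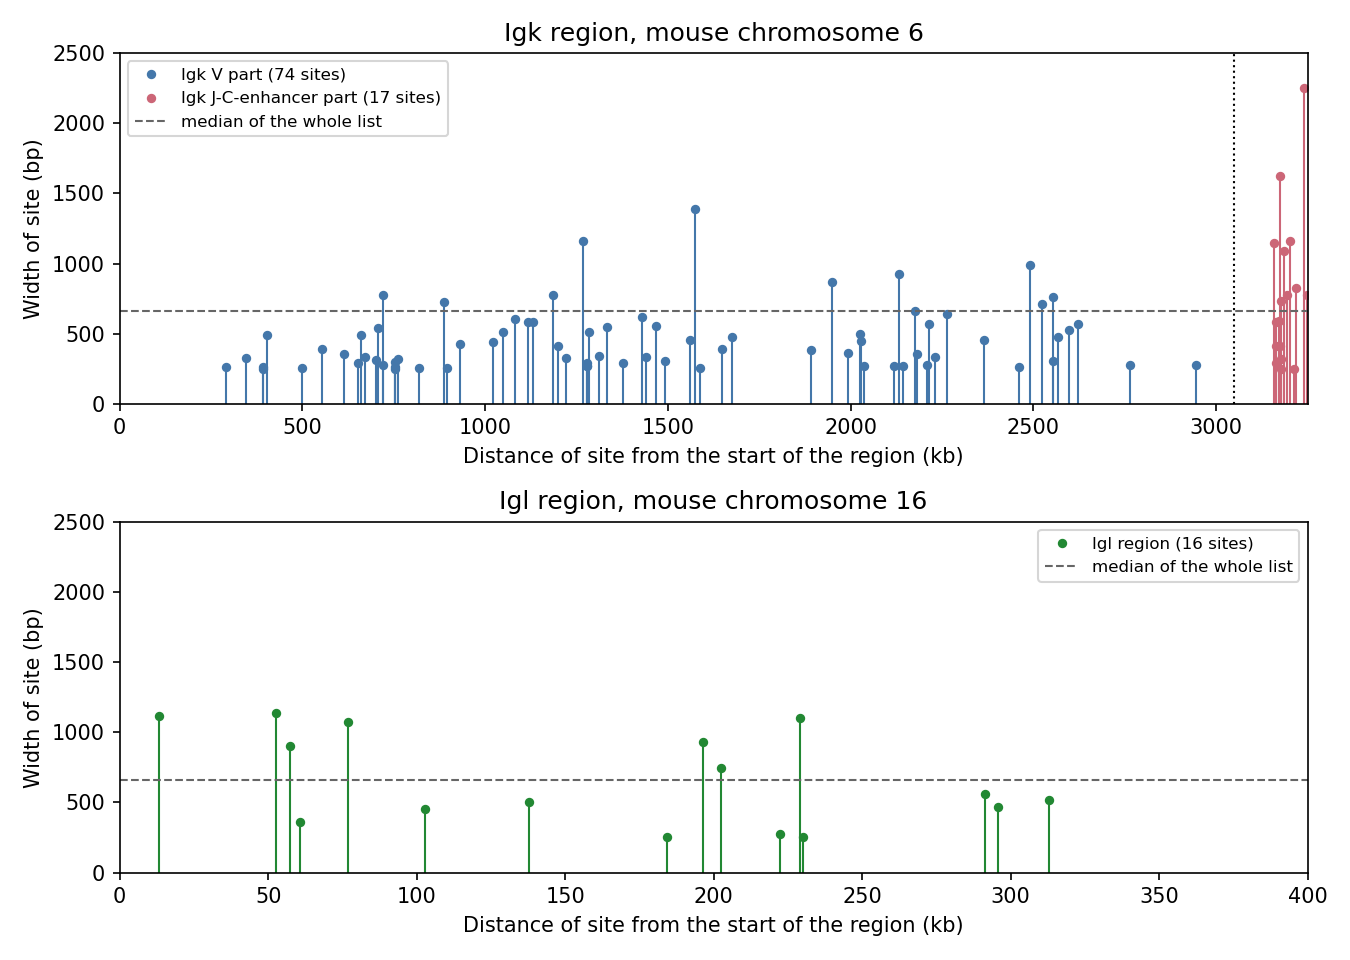
Width of each accessible site in bp (height of the line and point) against its distance in kb from the start of the Igk window (upper panel) and the Igl window (lower panel); the dotted line marks the end of the V part and the dashed line the median width of the whole list, 663 bp. The 74 V part sites are scattered and mostly low, the 17 J-C-enhancer sites stand together at the right end with widths up to 2252 bp, and the last 86.4 kb of the Igl window are empty.

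Sites lay in 40 of the 61 bins of 50 kb that make up the V part. Of these bins, 20 held 1 site, 11 held 2 and 9 held 3 or more, and the fullest held 5. This spread was compared with autosomal windows of the same length, tiled from the first to the last site of each autosome, that held a like number of sites (within 1.5 times, 50 to 111). Apart from 1 window that overlaps the V part itself there were 235 of them. Their sites occupied a median of 26 bins, with a range of 13 to 45, and in 6 of the 235 at least as many bins as in the V part were occupied. The V part sites were thus spread over more bins than those of most windows with a like number.

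The V part was also the narrowest in this comparison. Its sites had a median width of 389 bp (328 to 475) with quartiles of 282 and 556 bp, against a median of 663 bp for the whole list (658 to 668). Median widths of the 235 windows ran from 430 to 864 bp, with a median of 638 bp, so that none was as low. Sites narrower than 400 bp made up 39 of the 74, or 52.7% (40.8 to 64.4%), against 30.5% of the whole list and at most 47.3% in any of the 235 windows. No V part site was wider than 1500 bp, where a count of 0 of 74 allows a share of up to 4.05% if 3 counts are taken as the limit (exact binomial upper bound 4.86%); in the whole list 11.4% were that wide, and each of the 235 windows held at least 3.64%. Only 10 V part sites exceeded the median width of the list. At the smallest width in the list, 249 bp, were 2 of the 74 V part sites. In the whole list 1292 of 53593 sites had that width, a similar share. Isolated sites of the V part were narrow as well. The 35 V part sites without a neighbour within 12.5 kb had a median width of 411 bp (339 to 479). The 9647 such sites of the whole list had a median of 674 bp (660 to 683). How much of each site could be mapped uniquely was not tested, and V segments are families of similar sequence.

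**Figure D2:**
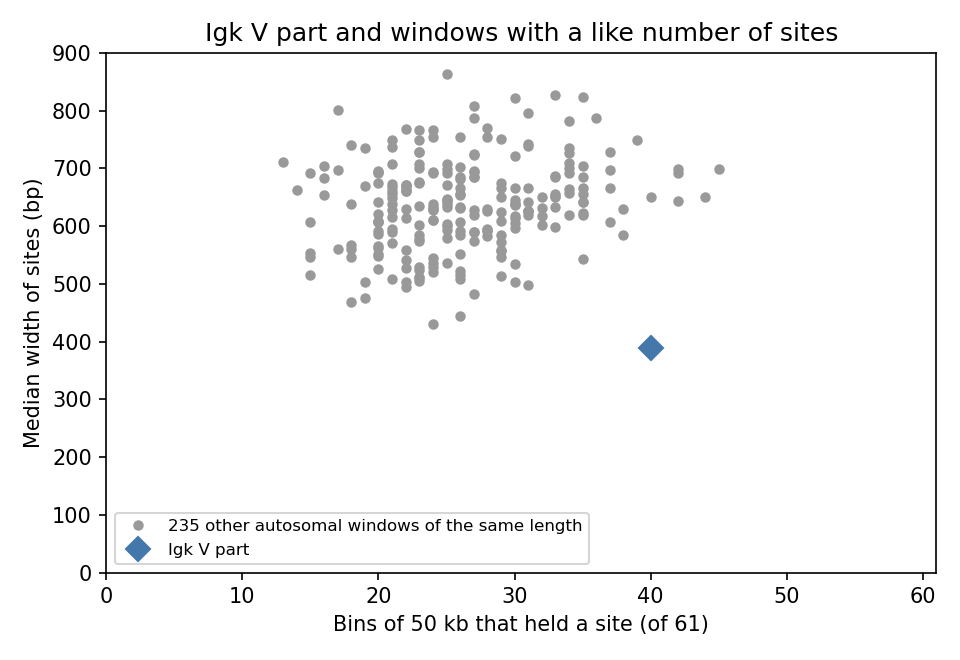
Median width of sites in bp against the number of 50-kb bins that held a site, for the Igk V part (diamond) and the 235 other autosomal windows of 3050 kb with a like number of sites (grey points). The V part, at 389 bp and 40 bins, lies below all grey points, of which the lowest is at 430 bp.

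The widest sites of the V part lay in several places along it. The widest spanned 1391 bp (69074588 to 69075978) and the next 1159 bp (68767913 to 68769071). The third was 991 bp wide and began at 69990440, the fourth was 927 bp wide and began at 69631034, and the fifth was 869 bp wide and began at 69449938. The remaining 5 of the 10 widest measured 708 to 775 bp and began at 68220106, 68686287, 68387364, 70023934 and 70052706. The last 2 of these and the site at 69990440 lay near each other. A width of 1391 bp is unremarkable in the list as a whole, where 14.0% of sites were at least as wide.

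Sites were unevenly distributed between pieces of the V part. Counted in pieces of 500 kb from the J-distal end, the numbers were 5, 18, 20, 8, 15 and 8 sites, and the last 50 kb held none. Median widths in these pieces were 260, 315, 477.5, 423.5, 451 and 503 bp in the same order. Narrow sites were 17 of the 23 in the first 2 pieces (73.9%, 51.6 to 89.8%) and 22 of the 51 in the other 4 (43.1%, 29.4 to 57.8%). The share was higher at the end away from Igkc, but these intervals overlap. When sites at most 12.5 kb apart were joined, the V part gave 35 single sites and 6 groups of 3 or more. Single sites were 47.3% of its 74 (35.6 to 59.25%), against 18.0% over the whole list. With single sites counted as groups, 6 of 50 V part groups held 3 or more, against 6362 of 20513 in the whole list. The largest V part group had 5 sites in 17.5 kb (68767913 to 68785395), among them the second widest site of the V part.

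The stretch of Igk nearest to the J segments held few or no sites on the V side. Of the 5 longest gaps in the window, 3 followed each other: 142.6 kb from 70122263, 178.7 kb from 70265094 and 215.1 kb from 70444027. Between them stood only sites of 279 bp and 280 bp. The longest, of 215.1 kb, ended at 70659112, where the J-C-enhancer sites began, and contained the border at 70550000. Gaps at least that long were 3.03% of those in the whole list. The other 2 of the 5 measured 213.1 kb (from 69177220) and 99.5 kb (from 69765249). In the RefSeq order, V segments of the Igkv3 family (Igkv3-1 is the last) come next to Igkj1 without a protein-coding gene between, so the empty first 109.1 kb of the J-C-enhancer part may hold V segments; their mm9 positions were not used here. Recombination can delete or invert the DNA between the joined V and J. The rearrangements and DNA copies of this tumour were not examined, so fewer copies and less accessible DNA cannot be told apart.

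The J-C-enhancer part was densely packed. Its 17 sites came to 85 per Mb (49.5 to 136.1), 3.503 times the density of the V part (1.94 to 5.995) and 3.87 times that of the autosomes. All 17 lay within a span of 89.3 kb, which began 109.1 kb into the 200 kb. Sites covered 6.74% of this part, against 1.11% of the V part and 1.77% of the autosomes. Of 12001 autosomal windows of 200 kb, 903 (7.52%) held 17 sites or more, and 47.6% held none. Within this part sites occupied 2 of the 4 bins of 50 kb, and 49 of 1457 windows with a like number of sites (3.36%) had as few bins occupied. The 2 empty bins lie next to the border with the V part, so these values depend on where the rule set that border.

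Sites in the J-C-enhancer part stood closer together than those in the V part. The intervals below do not overlap, but they treat sites and gaps as independent, and adjacent sites depend on each other. The median gap was 3.58 kb (0.387 to 7.58, 16 gaps), against 27.4 kb in the V part (13.5 to 33.6). The median gap of the whole list, 7.05 kb, lies inside the J-C-enhancer interval and below that of the V part. Another site lay within 500 bp of 9 of 17 sites (52.9%, 27.8 to 77.0%) and of 11 of 74 in the V part (14.9%, 7.66 to 25.04%). Over the whole list this share was 31.4%, inside the J-C-enhancer interval and above that of the V part. Every one of the 17 had a neighbour within 12.5 kb (80.5 to 100%), against 82.0% over the whole list. The longest gap inside this part was 21.7 kb.

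**Figure D3:**
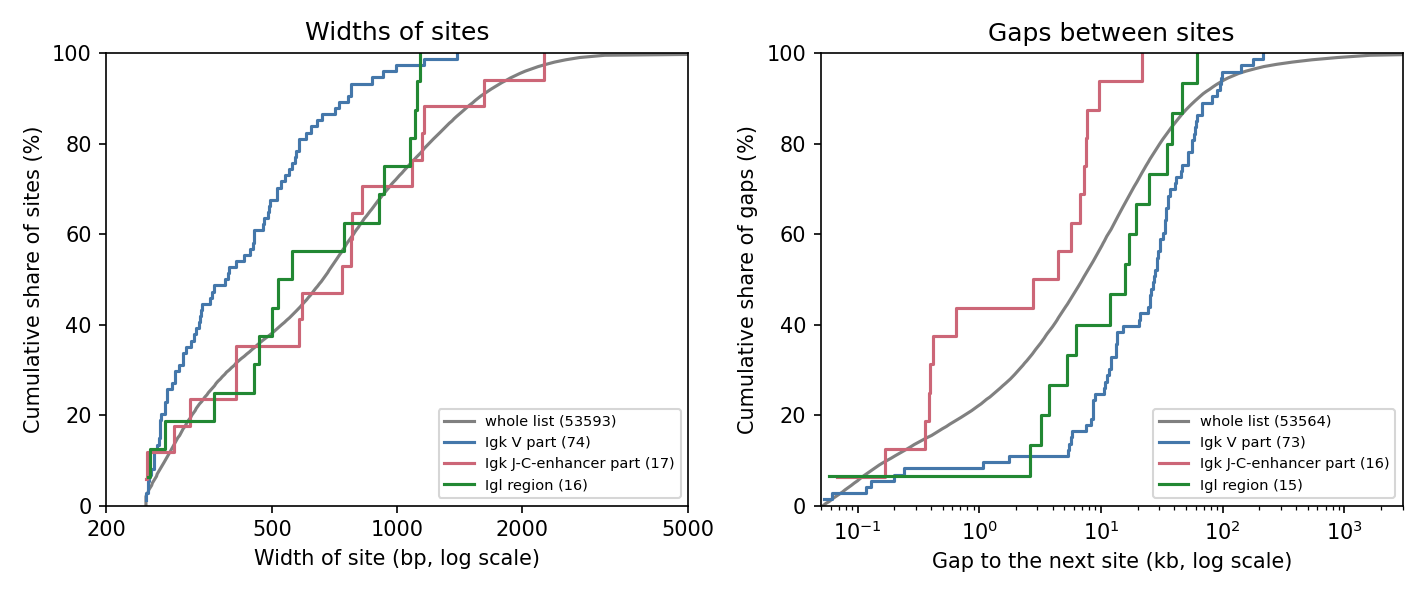
Cumulative share, in percent, of sites by width (left, bp, log scale) and of gaps by length (right, kb, log scale) for the 3 regions and the whole list. Around its middle the curve of V part widths lies to the left of the others, with its median at 389 bp. The gaps of the J-C-enhancer part, with a median of 3.58 kb, lie mostly to the left of those of the V part and of Igl. Some curves cross near their ends.

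The sites of the J-C-enhancer part were also wider. Their median width was 736 bp (409 to 1087), against 389 bp (328 to 475) in the V part, and the 2 intervals overlap between 409 and 475 bp. Above the list's median of 663 bp were 9 of 17 sites (52.9%, 27.8 to 77.0%), against 10 of 74 (13.5%, 6.68 to 23.5%) in the V part, and these intervals do not overlap. The interval of the J-C-enhancer median includes the 663 bp of the whole list, and that of the V part does not. Among the 9 are the last 2 sites of the part, of 2252 and 779 bp, which may belong to neighbouring genes. Widths were not recomputed without them.

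Along the J-C-enhancer part, sites are described in 4 sets, which were drawn by eye along the map and not by a joining distance. The first set, next to the long empty stretch, was a site of 1145 bp (70659112 to 70660256) followed by 3 sites of 582, 410 and 291 bp between 70663008 and 70664772. After 7.72 kb without a site came the tightest run, 6 sites within 5.87 kb (70672490 to 70678362). In order, these were 591, 1621, 409, 249, 736 and 318 bp wide and were separated by 167 to 643 bp, so that sites covered 66.8% of the run. Among 52646 runs of 6 consecutive autosomal sites, which share sites with their neighbours, 35 (0.0665%) were as short, and the median run was 71.9 kb long. The choice of 6 sites was made after the positions were seen. The run was also picked as the shortest of all runs of 6 sites in this part, so the share makes it look rarer than it is.

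The third set was a row of 5 sites at steps of 5.67 to 9.69 kb. It had sites of 1087 bp (70685106 to 70686192), 774 bp (70693771 to 70694544), 1160 bp (70701737 to 70702896), 251 bp (70712584 to 70712834) and 823 bp (70718506 to 70719328). With sites at most 12.5 kb apart joined, these first 3 sets made 1 group of 15 sites over 60.2 kb, of which 17.4% was covered. The fourth set, after 21.7 kb, was the widest site of either locus, 2252 bp (70741018 to 70743269), with a site of 779 bp beyond it (70747675 to 70748453). In the whole list 2.65% of sites were at least 2252 bp wide. This last set belonged to a group of 19 sites that ran on past the window to 70831354. In the RefSeq order the next protein-coding gene after Igkc is Rpia, which encodes ribose 5-phosphate isomerase, a pentose phosphate enzyme, followed by Eif2ak3, which encodes the endoplasmic reticulum stress kinase Perk. Whether the last set belongs to Igk or to these neighbours was not analysed here. Without its 2 sites, the J-C-enhancer part held 15, or 75 per Mb, which is 3.09 times the V part (1.65 to 5.43); this setting was chosen after seeing the data.

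**Figure D4:**
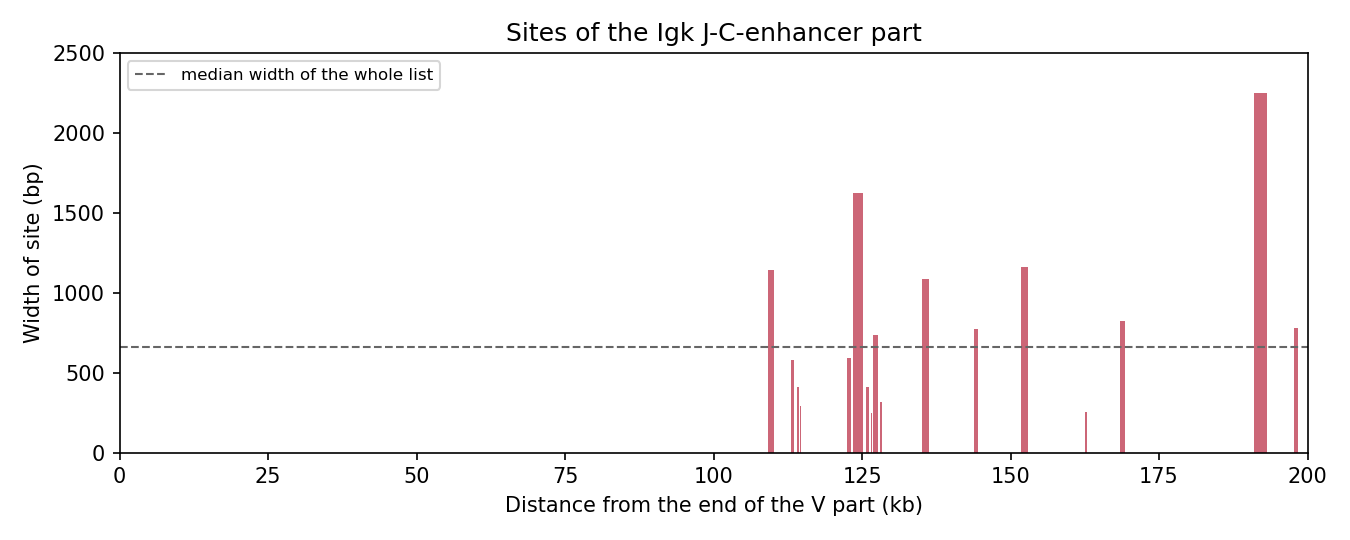
Sites of the Igk J-C-enhancer part, each drawn as a bar as wide as the site, by distance in kb from the end of the V part, with its width in bp as height; the dashed line is the median width of the whole list, 663 bp. The first 109.1 kb are empty, a tight run of 6 sites includes one of 1621 bp, and the widest bar, 2252 bp, stands near the end.

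The lambda locus lay between the 2 parts of Igk in density. The 16 sites of Igl came to 40 per Mb (22.9 to 65.0). This was 1.43 times all of Igk at 28 per Mb (0.784 to 2.45) and 1.65 times the V part (0.896 to 2.86), with both intervals including equality. With only sites wider than the median of the list, however, the ratio of Igl (7 sites) to all Igk (19 sites) was 2.99 (1.06 to 7.44). The J-C-enhancer part held 2.13 times the density of Igl (1.01 to 4.49). Of 5997 autosomal windows of 400 kb, 1338 (22.3%) held 16 sites or more. Sites covered 2.66% of the Igl window.

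Igl sites had a median width of 538.5 bp (362 to 1073) with a range of 252 to 1137 bp. This interval overlaps those of both parts of Igk. Narrow sites were 4 of 16 (25%, 7.27 to 52.4%), and none was wider than 1500 bp, where 0 of 16 allows a share of up to 18.8% by the limit of 3 counts (exact binomial upper bound 20.6%). The median gap was 15.8 kb (3.75 to 34.6, 15 gaps), and the longest 60.99 kb. The interval of the median gap includes the 7.05 kb of the whole list. A neighbour within 500 bp was found for 2 of the 16 sites (12.5%, 1.55 to 38.35%). This interval includes the 31.4% of the whole list, and the share of the Igk V part was 14.9%. With sites at most 5 kb apart joined, the largest Igl group had 3 sites, and that of the J-C-enhancer part 6.

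The Igl sites formed 3 groups of 3 sites at the joining distance of 12.5 kb, with 5 single sites. Single sites were 31.25% of the 16 (11.0 to 58.7%), an interval that includes the 18.0% of the whole list. With single sites counted as groups, 3 of 9 Igl groups held 3 or more, against 6362 of 20513 in the whole list. The first group lay at 19002793 to 19011038, with sites of 1137, 904 and 362 bp. It stood between single sites of 1114 bp (18963184 to 18964297) and 1073 bp (19026862 to 19027934). Of the 4 widest sites of the locus, 3 were thus at this end, which in the RefSeq order faces Hira, a gene for a histone chaperone, and Iglc1. Single sites of 454 bp (19052724 to 19053177) and 501 bp (19087753 to 19088253) followed.

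The second group, with sites of 255, 931 and 744 bp, spanned 19134236 to 19153226. The third group, at 19172449 to 19180402, had sites of 276, 1105 and 252 bp. After the longest gap of the locus, 60.99 kb, came sites of 559 bp (19241397 to 19241955), 465 bp (19245704 to 19246168) and 518 bp (19263067 to 19263584). In the RefSeq order, Iglv3 and Iglv2 are the last segments on this side and the odorant receptor gene Olfr164 follows.

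The loci also differed in what lay beside them. In flanks as long as each window, the side of Igk before the V part held 23 sites (7.08 per Mb, 4.49 to 10.6) and the side after the J-C-enhancer part 124 (38.2 per Mb, 31.7 to 45.5). Igk as a whole had 3.96 times the density of the first flank (2.48 to 6.55) and 0.734 times that of the second (0.554 to 0.970). No site was listed for 547.2 kb before the first V part site. For Igl, the flank before the window held 18 sites (45 per Mb) and the flank after it 1 site. The next site after the last of Igl lay 402.5 kb away. Igl thus lay between a flank of like density and one that was almost empty, and Igk between a sparse flank and a denser one. The 18 sites of the flank before Igl had a median width of 389.5 bp (290 to 851), near the 389 bp of the V part. Of these 18, 50% were narrower than 400 bp (26.0 to 74.0%). The flanks before and after Igk had medians of 639 and 707.5 bp.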

How the data were processed

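DNaseI sequencing was done on 1 untreated lymphoma. BWA 0.6.2 and SAMtools were used with build mm9, per the submitters' processing notes. How peaks were found, at what threshold, with or without the input, and what became of reads that map to several places is not given in the sources used here. As deposited by the authors, the list has 3 columns (chromosome, start, end) and no signal. Starts were counted from 1. The windows, the members and the measures were chosen with earlier results of these data known. Width, gap (end of a site to the start of the next), number per Mb and covered bases were computed for each window with Python 3.11.15, numpy 2.4.6, pandas 2.3.3 and scipy 1.17.1, and drawn with matplotlib 3.10.9. Autosomal density was taken per Mb between the outermost sites of each autosome. Counts, widths, gaps, covered bases and intervals of density ratios were tested on simulated data, in which sites of equal width were placed at random within the windows. Intervals of medians were tested on random numbers and not on sites. The comparison with windows of a like number of sites and the run of 6 sites were not tested in this way. How clustering of sites affects the intervals was not tested. All sites of the J-C-enhancer part and of Igl are named; in the V part, with over 25 sites, the rule covers the 10 widest and the 5 longest gaps, here taken over all of Igk. The comparison with windows of a like number of sites, the 500-kb pieces and the run of 6 sites were chosen after seeing the data. No mm9 sequence or annotation was used here, so motifs, gene lists and single segments were not analysed here.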

Additional observations from a re-analysis of the deposited data

How the results depend on the processing

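Of 44 recomputed values, 33 stayed within the counting interval of the main value (within 1.5 times for a number of groups), 11 moved beyond it and 0 reversed. Covered bases per Mb were judged by their ratio to the autosomes, and sites per Mb as they stood, also where only wide sites were kept. Among the 33 are the values for sites counted by their midpoint. These could not differ from the main values, since no site crossed an edge of a window or the border. With only sites wider than the median of the list, densities per Mb were 3.28 in the V part, 45 in the J-C-enhancer part and 17.5 in Igl. The ratio of J-C-enhancer to V part was then 13.7, that of Igl to all Igk 2.99, and the median V part gap 180.2 kb. The last 2 sites of the J-C-enhancer part, which may belong to neighbouring genes, count in the first of these ratios. Fewer sites follow from that setting itself, and all 3 densities count among the 11. Relative to the autosomes the V part went from 1.10 to 0.299 times, the J-C-enhancer part from 3.87 to 4.10 times and Igl from 1.82 to 1.595 times. By covered bases, the V part had 11.1 kb per Mb, 0.626 times the autosomes, and the J-C-enhancer part 6.07 times the V part. Moving the border by 100 kb towards the J segments left the sites of each part as they were and gave 170 per Mb and a ratio of 7.24, since the stretch moved held no site. Joining sites at most 1 kb apart raised the median width in the J-C-enhancer part to 1116 bp and lowered the ratio of its density to that of the V part to 2.24. No paired analysis was possible because there was 1 library. A stricter cut-off by signal was not run, as the list holds no counts.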
